A study of Homo sapiens with 18 samples.

Results

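Band 8q24 lies near the end of the long arm of chromosome 8 and is gained in many breast cancers. MYC, a transcription factor that drives growth, ribosome production and cell division, is the best known of its genes, and ASAP1, a GTPase-activating protein for ARF proteins that acts on the actin skeleton and on membrane traffic, lies further out on the same arm. The genes described here are MYC and 9 others around ASAP1, namely TRIB1, NSMCE2, FAM49B, FAM84B, EFR3A, PHF20L1, NDRG1, ST3GAL1 and RNF139. They were taken by symbol, and together they had 11 probes among 21111 probes for 19289 gene symbols. NDRG1 had 2 probes, NDRG1_21187 and NDRG1_4510, and every other gene had 1.

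The libraries were made with TempO-Seq, in which pairs of short detector oligos are ligated on their target RNA and counted by sequencing. Human triple-negative breast cancer (TNBC) cell lines BT549, Hs578T and SUM149PT received 50 nM of an siRNA pool against ASAP1 (siASAP1) or a control siRNA pool (siCtrl) and were lysed after 72 h. The control pool was made up of siRNAs against kinases according to the study's methods, and no untransfected cells were analysed here. Each of the 6 groups held 3 replicates, 18 libraries in all. The study describes ASAP1 as gained and highly expressed in these lines, but copy number was not measured in these libraries. The study calls the experiments independent and the labels do not say that replicates came from separate cultures, so p-values describe the spread between these libraries.

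The 18 libraries held 4633629 to 12488575 reads. Levels below are normalized counts, that is reads divided by a size factor for the library. They may be compared between samples but not between genes, because each probe captures its target with its own efficiency. Marker genes separated the lines. The summed level of 14 epithelial markers was 33768 to 59890 in SUM149PT and 73.6 to 489 in the other lines, where the CDH1 probe was at 0. Of these markers only CLDN3 was at 0 in every SUM149PT library. The summed mesenchymal level was 72046 to 320533 in BT549 and Hs578T and 6652 to 13170 in SUM149PT. Leukocyte markers summed to at most 8.5 in every library.

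The target of the siRNA was read first. In BT549 the ASAP1 level was 1107, 966 and 944 in siCtrl and 367, 730 and 783 in siASAP1. In Hs578T it was 1641, 1414 and 2697 in siCtrl and 782, 825 and 1261 in siASAP1. In SUM149PT it was 1087, 189 and 1314 in siCtrl and 282, 468 and 184 in siASAP1. The groups did not overlap in BT549 and Hs578T, whereas in SUM149PT the library labelled siCtrl replicate 2 stood within the siASAP1 range. That library goes against its label for ASAP1. Values that rest on it are therefore also given without it where a call changed or a count moved by over 1.5 times. The library was picked by its ASAP1 level, so p-values and calls without it are a description and not a test. The Log2 FC of ASAP1 (siASAP1 against siCtrl) was −0.75 (SE 0.39) in BT549, −0.98 (SE 0.32) in Hs578T and −1.16 (SE 0.77) in SUM149PT, with limma adjusted p-values of 0.647, 0.915 and 0.657. Without SUM149PT siCtrl replicate 2 the value in SUM149PT was −2.04 (SE 0.46, adjusted p = 0.064), which met the study's limits given below. An exact two-sided permutation test with all libraries gave p = 0.1, 0.1 and 0.3, and 0.1 is the smallest value that 3 against 3 allows. Over the 3 lines the Log2 FC was −0.96 (SE 0.31, limma adjusted p = 0.127). Without SUM149PT siCtrl replicate 2 it was −1.20 (SE 0.25, adjusted p = 0.0187). That library was left out for its ASAP1 level, so the ASAP1 values without it cannot serve as a test of the silencing.

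On GRCh38 (GENCODE v29, used here for orientation because the build behind the probes is not given in the sources used here), the 10 genes and ASAP1 are all protein-coding. RNF139 is at chr8:124474738-124487914, NSMCE2 at chr8:125091679-125367120, TRIB1 at chr8:125430321-125438405 and FAM84B at chr8:126552442-126558393. MYC follows at chr8:127735434-127741434, FAM49B at chr8:129839593-130017129 and ASAP1 at chr8:130052104-130443660. Beyond ASAP1 come EFR3A at chr8:131904088-132013642, PHF20L1 at chr8:132775358-132848807, NDRG1 at chr8:133237171-133302022 and ST3GAL1 at chr8:133454848-133571940. FAM49B is the nearest to ASAP1, at 35.0 kb, EFR3A is at 1460 kb, MYC at 2311 kb and RNF139 is the farthest at 5564 kb. Which exon each probe reads is not stated in the sources used here.

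**Figure D1:**
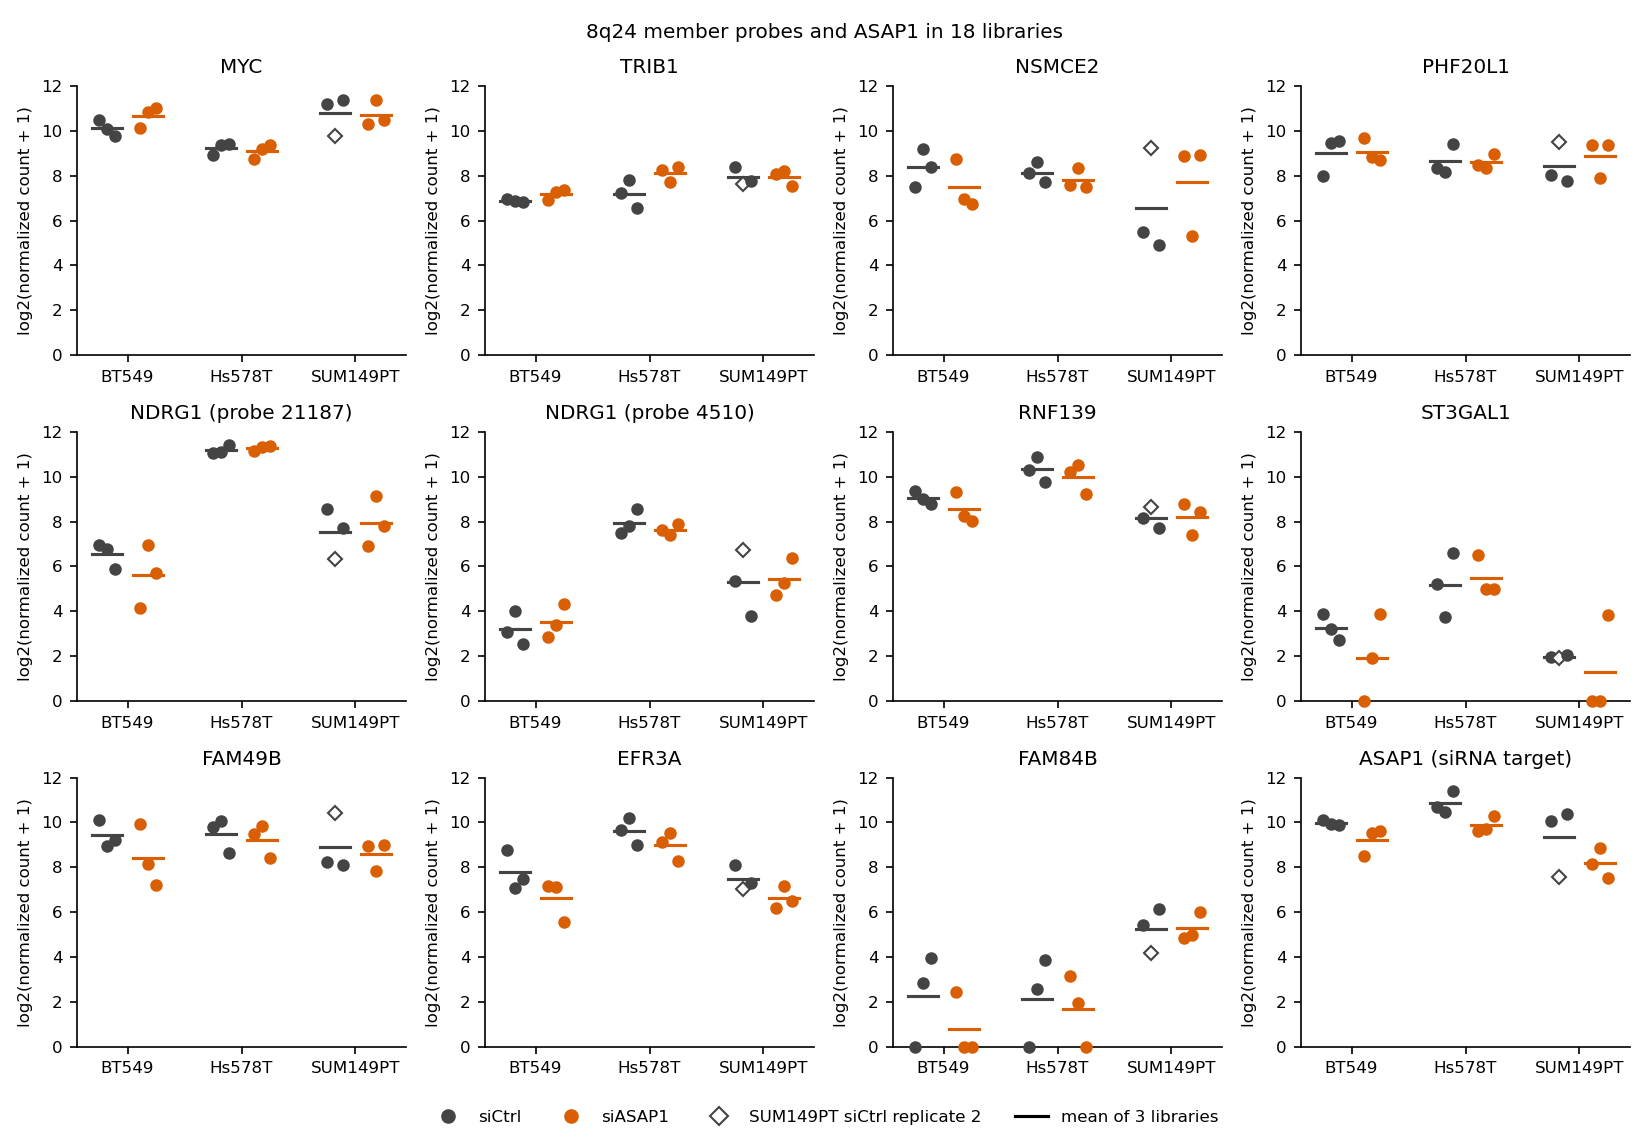
Normalized counts of the 11 probes of MYC and the other 8q24 genes and of ASAP1 in each of the 18 libraries, by cell line and treatment, on a log2(normalized count + 1) axis. Points are libraries, bars are means of 3 libraries and the open diamond is SUM149PT siCtrl replicate 2. NDRG1 was highest in Hs578T by both probes, and MYC was lowest in that line.

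The first question was whether the lines differed in these genes at baseline, in siCtrl. Of the 11 probes, 3 were lower in BT549 than in Hs578T, 6 differed between SUM149PT and Hs578T (1 higher and 5 lower in SUM149PT), and none passed between SUM149PT and BT549. In these bulk lysates fewer cells of a kind and less RNA per cell cannot be told apart. All calls here are limma fits over 10255 probes with Benjamini-Hochberg adjustment at 0.05. The share of all probes called was 13.9% between BT549 and Hs578T (7.58% lower in BT549). It was 18.2% between SUM149PT and BT549 and 20.2% between SUM149PT and Hs578T (9.68% higher and 10.6% lower in SUM149PT). These shares also apply to the gene lists counted between lines below with all libraries. The 3 libraries of a group did not overlap with those of the other for 5, 4 and 7 of the 11 probes, beside 36.7%, 32.8% and 35.4% of all probes. The members' median Log2 difference was −0.31, −0.30 and −1.60 in these comparisons, beside medians of 0.01, −0.04 and −0.00 over all probes tested. For SUM149PT against BT549, 4 of the 11 passed an unadjusted p of 0.05 in limma, as did 30.1% of all probes, and voom weights also gave 0 at the adjusted level. Without SUM149PT siCtrl replicate 2, 5 of the 11 passed after adjustment between BT549 and Hs578T (22.4% of all probes). Between SUM149PT and BT549 4 then passed (34.2%), and between SUM149PT and Hs578T 7 (31.7%). These 3 shares also apply to the gene lists counted between lines below without that library.

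**Figure D2:**
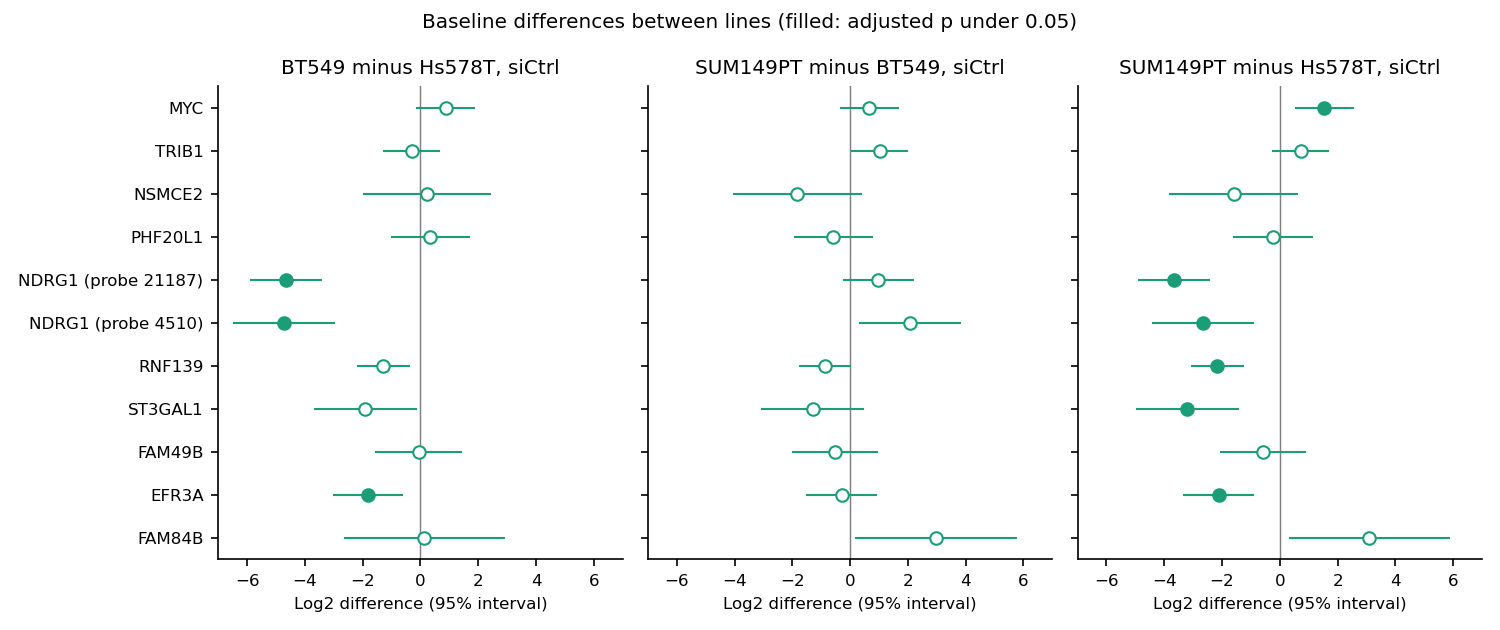
Log2 differences between lines in siCtrl for the 11 probes, with 95% confidence intervals from the limma fit of 9 libraries; filled points passed an adjusted p of 0.05. The intervals of both NDRG1 probes lie below 0 in BT549 minus Hs578T and in SUM149PT minus Hs578T, and that of MYC lies above 0 in SUM149PT minus Hs578T.

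MYC was measured at 1430, 1094 and 868 in BT549 siCtrl, at 480, 663 and 688 in Hs578T siCtrl and at 2340, 868 and 2685 in SUM149PT siCtrl. The means were 1131 ± 283, 610 ± 113 and 1965 ± 965 (SD, n = 3). Every Hs578T library was below every library of the other lines, and this also held with siASAP1 included: the highest of 6 in Hs578T was 688 and the lowest of 6 was 868 in BT549 and in SUM149PT. MYC was higher in SUM149PT than in Hs578T by 1.55 on the log2 scale (SE 0.45, 2.92-fold, 95% CI 0.55 to 2.54, limma adjusted p = 0.0348). The BT549 minus Hs578T difference was 0.88 (SE 0.45, adjusted p = 0.251) and SUM149PT minus BT549 was 0.67 (SE 0.45, adjusted p = 0.359).

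The MYC differences depended on single libraries. The low library in SUM149PT, 868 beside 2340 and 2685, was siCtrl replicate 2, the one whose ASAP1 level went against its label. Without it MYC differed in all 3 comparisons: by 2.05 for SUM149PT minus Hs578T (limma adjusted p = 0.000845), 1.18 for SUM149PT minus BT549 (0.014) and 0.88 for BT549 minus Hs578T (0.041). The last difference does not contain that library, and only the spread shared over the lines moved. The library was singled out by its ASAP1 level, with which MYC varied within groups (r = 0.88). The p-values without it are therefore a description and not a test. In the other direction, the call for SUM149PT minus Hs578T was lost without SUM149PT siCtrl replicate 1 (limma adjusted p = 0.119) or 3 (0.123), Hs578T siCtrl replicate 1 (0.132), 2 (0.0855) or 3 (0.0576), and BT549 siCtrl replicate 2 (0.0575) or 3 (0.0544).

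With all libraries, few genes that MYC is known to switch on differed between the lines. Of 54 probes of MYC-activated targets tested, 0 passed in BT549 against Hs578T (3 at an unadjusted p under 0.05 in limma, 0 with voom, and 1 of 55 adjusted without SUM149PT siCtrl replicate 2), 2 were lower in SUM149PT than in BT549, and in SUM149PT against Hs578T 2 were higher and 3 lower. NIP7, a ribosome assembly factor, was higher in SUM149PT than in Hs578T by 1.83 (limma adjusted p = 0.0155). LDHA, which makes lactate from pyruvate, and ODC1, the first enzyme of polyamine synthesis, were lower in SUM149PT, LDHA by −2.03 (0.00995) and ODC1 by −1.47 (0.00697). The list's median was 0.41 beside −0.00 over all probes, and without SUM149PT siCtrl replicate 2, 17 of 55 in place of 5 passed in this comparison and 14 of 55 in place of 2 against BT549, beside 31.7% and 34.2% of all probes in those fits.

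Of 16 probes of genes that MYC represses, 12 differed between SUM149PT and Hs578T, 11 of them lower in SUM149PT (20.2% of all probes differed). Between SUM149PT and BT549, where MYC was not called, 8 differed, all lower in SUM149PT (18.2%). Between BT549 and Hs578T 4 did, 2 higher and 2 lower (13.9%). SPARC, COL1A2, COL3A1 and COL1A1, genes of the extracellular matrix, led the list between SUM149PT and Hs578T. They also belong to the mesenchymal markers, which differ between these lines as given above. Their part in the result was not tested. Of 26 probes of the MYC network (MAX, its partners, and the ligases and cofactors of MYC), 2, 1 and 2 passed in the 3 comparisons, and 2, 4 and 6 without SUM149PT siCtrl replicate 2. In the fits without it 22.4%, 34.2% and 31.7% of all probes passed. HUWE1, a ubiquitin ligase that acts on MYC and MYC partners, was higher in SUM149PT than in Hs578T by 1.79 (limma adjusted p = 0.00523) and than in BT549 by 1.35 (0.0246).

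NDRG1, a stress and hypoxia responsive protein whose gene MYC proteins repress, had the widest range among lines. By NDRG1_21187 the level was 2104, 2217 and 2746 in Hs578T siCtrl, 124, 109 and 58.2 in BT549 siCtrl and 370, 80.2 and 206 in SUM149PT siCtrl. The Hs578T libraries stood apart from all others with either siRNA, the lowest of 6 being 2104 and the highest outside Hs578T 569. The level was 25.1-fold lower in BT549 than in Hs578T (Log2 difference −4.65, SE 0.54, limma adjusted p = 0.000301) and 12.7-fold lower in SUM149PT (−3.67, SE 0.54, adjusted p = 0.000841). The call for SUM149PT held without siCtrl replicate 2, at −3.08 (0.000468).

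The other NDRG1 probe was read less deeply and gave the same order of lines. NDRG1_4510 was at 177, 219 and 379 in Hs578T siCtrl, 7.5, 15.1 and 4.9 in BT549 siCtrl and 40.0, 106 and 12.8 in SUM149PT siCtrl. The differences from Hs578T were −4.73 (SE 0.78, limma adjusted p = 0.00238) for BT549 and −2.65 (SE 0.78, adjusted p = 0.0373) for SUM149PT. The second call was narrow: the adjusted p was 0.0504 to 0.113 without any of SUM149PT siCtrl replicates 1 and 3, BT549 siCtrl replicates 1 and 3 or Hs578T siCtrl replicates 1, 2 and 3, and it was 0.00645 without SUM149PT siCtrl replicate 2. The call was also lost with a pseudocount of 0.1 (0.0543). Between SUM149PT and BT549 NDRG1_4510 differed by 2.07 (adjusted p = 0.1), or 1.35 (0.166) without SUM149PT siCtrl replicate 2, and NDRG1_21187 by 0.98, and without SUM149PT siCtrl replicate 2 the latter was 1.57 (adjusted p = 0.0148).

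Hypoxia genes were read beside NDRG1. Of 16 probes, 6 passed in each of the 3 line comparisons, beside 13.9%, 18.2% and 20.2% of all probes. VEGFA, which codes for the main angiogenic growth factor, was lower in BT549 than in Hs578T by −1.89 (limma adjusted p = 0.0127). BNIP3L and P4HA1, a mitophagy receptor and a collagen prolyl hydroxylase subunit, were lower in SUM149PT than in Hs578T by −2.51 (0.00047) and −2.61 (0.00126), whereas DDIT4, an inhibitor of mTORC1, was higher by 3.43 (0.00703). LOX, which cross-links collagen, was higher in BT549 than in Hs578T by 3.58 (0.000228), so members of the list went both ways. Of the NDRG paralogs only NDRG4 was read deeply enough to test, and it was higher in SUM149PT, at a mean of 65.1, than in BT549 (4.79, adjusted p = 0.00227) and Hs578T (5.46, adjusted p = 0.000902).

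RNF139 (TRC8), a ubiquitin ligase of the endoplasmic reticulum that takes part in sterol-regulated protein turnover, was at 1264, 1895 and 878 in Hs578T siCtrl, 656, 505 and 441 in BT549 siCtrl and 283, 398 and 208 in SUM149PT siCtrl. The 3 lines did not overlap in siCtrl. SUM149PT was 4.47-fold lower than Hs578T (Log2 difference −2.16, SE 0.39, limma adjusted p = 0.00296), and without siCtrl replicate 2 of SUM149PT the difference was −2.40 (0.00118). BT549 minus Hs578T was −1.28 (SE 0.39, adjusted p = 0.0571), which became 0.0207 without SUM149PT siCtrl replicate 2 and 0.0399 without Hs578T siCtrl replicate 3. SUM149PT minus BT549 was −0.88 (adjusted p = 0.162), and −1.12 (0.0409) without SUM149PT siCtrl replicate 2.

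Other genes of sterol control and of ubiquitin ligation in the endoplasmic reticulum passed at 2, 2 and 4 of 11 probes, and at 3, 4 and 6 without SUM149PT siCtrl replicate 2. In the fits without it 22.4%, 34.2% and 31.7% of all probes passed. MARCH6, another ligase of this membrane, was lower in SUM149PT than in BT549 by −1.52 (limma adjusted p = 0.00282) and than in Hs578T by −1.49 (0.00294).

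EFR3A, which anchors the phosphatidylinositol 4-kinase PI4KA to the plasma membrane, was at 806, 1160 and 503 in Hs578T siCtrl, 441, 135 and 176 in BT549 siCtrl and 278, 131 and 155 in SUM149PT siCtrl. It was lower than in Hs578T by −1.82 in BT549 (SE 0.53, 3.54-fold, limma adjusted p = 0.0474) and by −2.12 in SUM149PT (SE 0.53, 4.35-fold, adjusted p = 0.0181), with no overlap of the libraries in either comparison. In BT549 the call was lost without Hs578T siCtrl replicate 1 or 2 (adjusted p = 0.141 and 0.18), BT549 siCtrl replicate 2 or 3 (0.186 and 0.174) and SUM149PT siCtrl replicate 1 or 3 (0.0536 and 0.0636), and in SUM149PT without Hs578T siCtrl replicate 1 or 2 (0.067 and 0.084) or SUM149PT siCtrl replicate 3 (0.0591). The BT549 call was also lost with TMM scaling (limma adjusted p = 0.051), scaling by library totals (0.0616), a pseudocount of 0.1 (0.055) and no filter on low counts (0.0568). Without SUM149PT siCtrl replicate 2 the values were −1.82 (0.0279) and −1.90 (0.0287).

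Among the partners of EFR3A, 2 of 5 probes passed between SUM149PT and BT549, 3 between SUM149PT and Hs578T and 0 between BT549 and Hs578T (1 at an unadjusted p under 0.05 in limma, 1 with voom). TTC7A and TTC7B, alternative scaffolds of the kinase complex, went opposite ways between SUM149PT and Hs578T, with TTC7A higher by 2.76 (limma adjusted p = 0.00882) and TTC7B lower by −3.19 (0.00288). FAM126A, another subunit of the complex, was lower in SUM149PT than in Hs578T by −3.19 (0.00323) and than in BT549 by −2.90 (0.00602).

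ST3GAL1, a sialyltransferase that caps core 1 O-glycans, was read at low counts. It was at 36.3, 12.2 and 94.6 in Hs578T siCtrl, 13.7, 8.2 and 5.6 in BT549 siCtrl and 2.9, 2.7 and 3.2 in SUM149PT siCtrl. SUM149PT stood below every Hs578T library, by −3.20 on the log2(normalized count + 1) scale (SE 0.78, 9.21-fold, limma adjusted p = 0.0161), and the call was lost without Hs578T siCtrl replicate 1 (0.0603) and kept without SUM149PT siCtrl replicate 2 (−3.17, 0.0216). The added count of 1 shrinks fold changes of such low probes. Of 10 probes for other enzymes of this pathway 2, 1 and 2 passed, and 3, 3 and 4 without SUM149PT siCtrl replicate 2. In the fits without it 22.4%, 34.2% and 31.7% of all probes passed. GALNT3, which starts O-glycans, was lower in BT549 than in Hs578T by −4.40 (0.000177) and higher in SUM149PT than in BT549 by 6.32 (1.31e-05).

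FAM84B was read in SUM149PT at 41.5, 17.3 and 70.3 in siCtrl, and at 0 to 14.7 in the 6 siCtrl libraries of the other lines. The lowest of all 6 SUM149PT libraries, 17.3, was above the highest of BT549, 14.7, and of Hs578T, 13.8. The Log2 differences were 2.97 from BT549 (SE 1.23, limma adjusted p = 0.137) and 3.10 from Hs578T (SE 1.23, adjusted p = 0.109), so the separation did not pass the test. Without SUM149PT siCtrl replicate 2 the adjusted p-values were 0.0742 and 0.0688 in limma. FAM84B had 0 reads in 5 of the 12 libraries of BT549 and Hs578T, which allows up to 3 reads each by counting error alone.

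TRIB1, a pseudokinase that brings C/EBP proteins to the ligase COP1 for degradation, was at 333, 196 and 216 in SUM149PT siCtrl, 149, 224 and 93.6 in Hs578T siCtrl and 125, 116 and 114 in BT549 siCtrl. SUM149PT lay above BT549 in every library, by 1.03 (SE 0.42), with a limma adjusted p of 0.134, and by 1.18 (0.0589) without SUM149PT siCtrl replicate 2. CEBPB, one of the C/EBP factors, was higher in SUM149PT than in BT549 by 3.05 (0.00466) and lower in BT549 than in Hs578T by −2.22 (0.0317), and it was the only one of 4 probes for TRIB1 partners and paralogs to pass in either comparison with all libraries. In each SUM149PT comparison 2 of 4 passed without siCtrl replicate 2 of that line, beside 34.2% (BT549) and 31.7% (Hs578T) of all probes.

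NSMCE2, FAM49B and PHF20L1 showed no call between lines with all libraries. The pooled SD within groups was 1.43 for NSMCE2, 0.96 for FAM49B and 0.74 for PHF20L1 on the log2 scale, beside a median of 0.81 over all probes. NSMCE2, the SUMO ligase of the SMC5-SMC6 DNA repair complex, was at 44.3, 600.4 and 28.8 in SUM149PT siCtrl, 181, 590.5 and 339 in BT549 siCtrl and 277, 388 and 208 in Hs578T siCtrl. The high library in SUM149PT was again siCtrl replicate 2. Without it NSMCE2 was lower in SUM149PT than in BT549 by −3.18 (limma adjusted p = 0.00191) and than in Hs578T by −2.94 (0.00281), beside −1.83 and −1.60 with it. FAM49B, which binds RAC1 and limits the WAVE actin complex, ranged from 270.1 to 1367 in siCtrl over the 3 lines, and PHF20L1, a reader of methylated lysines on chromatin, from 214 to 740.

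The known partners of these 3 genes gave few calls with all libraries. EID3 of the SMC5-SMC6 complex was higher in BT549 than in Hs578T by 3.86 (limma adjusted p = 0.0276), 1 of 8 probes. RAC1 was lower in SUM149PT than in Hs578T by −1.79 (0.0181) and WASF1 was higher in BT549 than in Hs578T by 2.19 (0.0386), each 1 of 8 probes. OGT, the O-GlcNAc transferase of the NSL complex, was higher in BT549 than in Hs578T by 1.12 (0.0458), 1 of 8. When SUM149PT siCtrl replicate 2 was left out, SUM149PT against Hs578T gave 3 of 8 for SMC5-SMC6, 2 of 8 for RAC1 and WAVE and 1 of 8 for NSL, and SUM149PT against BT549 gave 2, 0 and 0. The shares of all probes in these fits were 31.7% and 34.2%.

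Other genes of the band were read over 134 symbols. Of 72 probes tested, 14 differed between BT549 and Hs578T (5 higher, 9 lower) and 7 between SUM149PT and BT549 (3 higher, 4 lower). Between SUM149PT and Hs578T 16 differed (3 higher, 13 lower). The shares of all probes were 13.9%, 18.2% and 20.2%. The counts were 20, 19 and 24 of 69 without SUM149PT siCtrl replicate 2, beside 22.4%, 34.2% and 31.7% of all probes in those fits. WISP1, a secreted matrix protein, was at a mean of 1503 in Hs578T, 26.6 in BT549 and 0.304 in SUM149PT, and DEPTOR, an inhibitor of mTOR, at 2969, 42.0 and 27.8. Among the 16 genes that lie between RNF139 and ST3GAL1, beside the members, 7 probes were tested and 3 passed in each comparison (5, 4 and 3 without SUM149PT siCtrl replicate 2). ZNF572 was higher in BT549 than in Hs578T by 2.35 (limma adjusted p = 0.0203), and SQLE, an enzyme of cholesterol synthesis, was lower in SUM149PT than in Hs578T by −2.75 (0.0276).

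The second question was whether genes near ASAP1 changed with siASAP1. The study's limits for a changed gene, an unadjusted p under 0.05 with an absolute Log2 FC over 1, were used within each line. By these limits 0 of the 9 member probes tested in BT549 passed, and neither did any of the 10 tested in Hs578T or the 10 tested in SUM149PT, beside 6.97%, 2.78% and 9.56% of all probes. In limma 0, 1 and 0 members had an unadjusted p under 0.05, beside 7.8%, 5.28% and 10.2% of all probes, and voom weights also gave 0 by the study's limits. With adjustment no probe of any gene passed in a single line (0.0% of each table). Over the 3 lines together 0 of 11 passed an adjusted p of 0.05, beside 1.74% of all probes, 1 had an unadjusted p under 0.05 (15.8% of all probes), and voom again gave 0. FAM84B and ST3GAL1 in BT549, FAM84B in Hs578T and ST3GAL1 in SUM149PT had mean normalized counts under 10 and were not tested there.

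**Figure D3:**
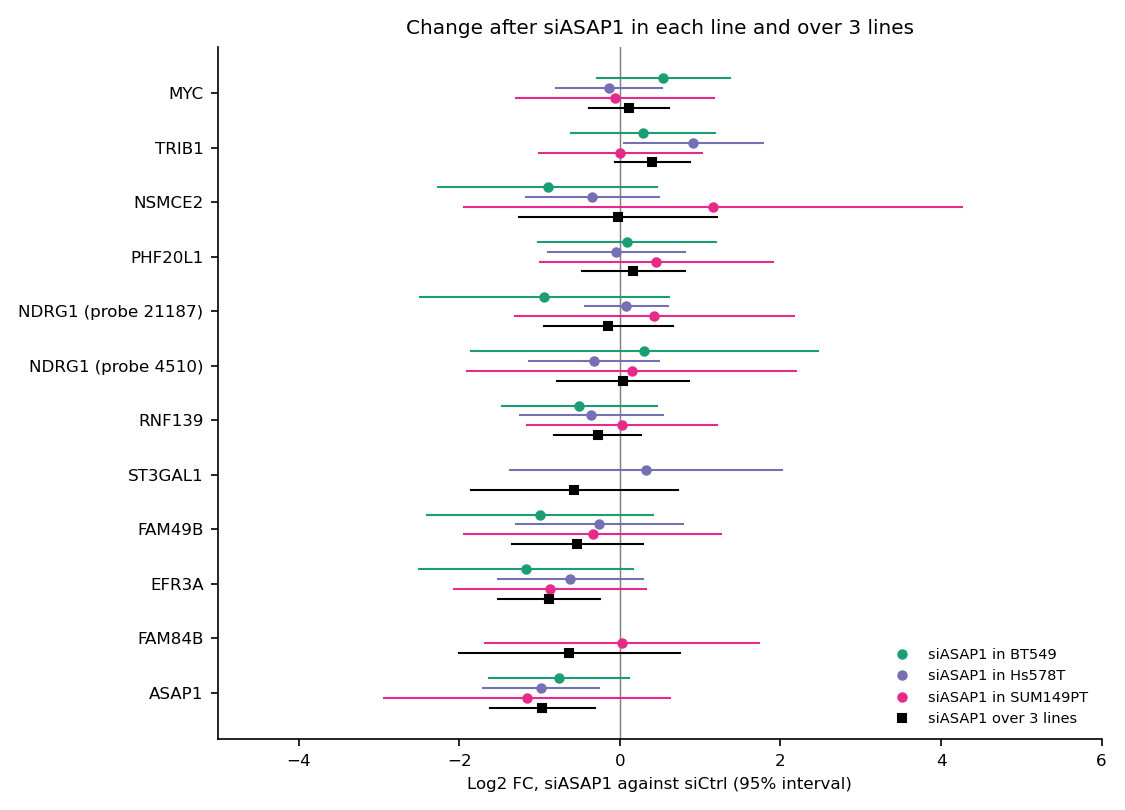
Log2 FC (siASAP1 against siCtrl) of the 11 probes and ASAP1 in each line and over the 3 lines, with 95% confidence intervals from limma. The intervals of the members include 0 except TRIB1 in Hs578T and EFR3A over the 3 lines, neither of which passed after adjustment.

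The members' median Log2 FC was −0.50 in BT549, −0.19 in Hs578T, 0.03 in SUM149PT and −0.14 over the lines, beside −0.00, 0.01, 0.09 and 0.02 for all probes tested. The interval of a member's Log2 FC reached as far as −2.50 and 4.26 in single lines, so changes of well over 2-fold were not detectable for some members. In the test of whether the change differed between lines, the interaction of line and siASAP1 in limma, 0 of 11 passed an adjusted p of 0.05 (0.00955% of all probes), 0 had an unadjusted p under 0.05 (6.22%), and voom gave 0. The smallest member p was 0.233, for TRIB1 (limma adjusted p = 0.965).

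MYC after siASAP1 was at 1119, 1812 and 2074 in BT549, at 428, 582 and 666 in Hs578T and at 1253, 2629 and 1452 in SUM149PT. Each of these ranges overlapped the siCtrl range of its line. The Log2 FC was 0.54 (95% CI −0.29 to 1.37) in BT549, −0.13 (−0.79 to 0.52) in Hs578T, −0.06 (−1.30 to 1.17) in SUM149PT and 0.12 (SE 0.24, −0.38 to 0.61, limma adjusted p = 0.869) over the lines. In SUM149PT it was −0.57 (unadjusted p = 0.177) without siCtrl replicate 2.

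MYC-activated targets were counted beside MYC. By the study's limits 4 of 56 probes passed in BT549 (1 higher, 3 lower), 2 of 54 in Hs578T (both lower) and 8 of 55 in SUM149PT (all lower). The shares of all probes were 6.97%, 2.78% and 9.56%. Over the 3 lines 4 of 56 passed after adjustment, all lower, beside 1.74% of all probes. Over the lines NME1 and NME2, nucleoside diphosphate kinases, fell by 1.13 (limma adjusted p = 0.00435) and 1.03 (0.0227), APEX1, a base excision repair endonuclease, fell by 1.20 (0.00925), and RAN, the GTPase of nuclear transport, fell by 1.18 (0.0105). The list's median over the lines was −0.18 beside 0.02 for all probes. With the replicate number as a block 1 of the 4, RAN, passed. With the block 3 of the list met the limits in SUM149PT, and the list gave 18 of 54 without siCtrl replicate 2, where 23.4% of all probes passed.

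Of the MYC network, 4 of 28 probes passed the study's limits in SUM149PT, all higher, beside 9.56% of all probes. They included MYCBP2 by 1.96 (limma adjusted p = 0.346), MXD1, a MAX partner that opposes MYC, by 2.17 (0.479) and MAX by 1.27 (0.486). The count was 9 of 29 without siCtrl replicate 2, where 23.4% of all probes met the limits, and 1 with the replicate number as a block. Over the lines 0 of 27 passed after adjustment, with 5 at an unadjusted p under 0.05 in limma and 0 with voom. MYC-repressed targets met the limits at 6 of 15 probes in BT549 (3 higher, 3 lower) and 2 of 9 in SUM149PT (both higher, 0 with the block). In Hs578T 0 of 17 did (1 at an unadjusted p under 0.05 in limma, 0 with voom), and over the lines 0 of 16 passed (6 and 0). The shares of all probes by the limits were 6.97% in BT549, 9.56% in SUM149PT and 2.78% in Hs578T. GADD45A, a stress-induced growth arrest gene, was higher after siASAP1 in BT549 by 1.83 (limma adjusted p = 0.311) and in SUM149PT by 1.71 (0.461), neither of which passed after adjustment.

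EFR3A had the lowest unadjusted p of the members after siASAP1. It was at 143, 139 and 45.6 in BT549, 564, 731 and 315 in Hs578T and 71.4, 141 and 90.7 in SUM149PT, beside the siCtrl values above. The groups overlapped in every line. The Log2 FC was −1.17 (unadjusted p = 0.0794), −0.62 (0.158) and −0.87 (0.133) in the 3 lines and −0.88 over them (SE 0.30, 95% CI −1.52 to −0.25, unadjusted p = 0.00873), which did not pass after adjustment in limma (adjusted p = 0.143). In BT549 EFR3A met the study's limits without siCtrl replicate 2 (−1.51, limma adjusted p = 0.82), and in SUM149PT the value without siCtrl replicate 2 was −1.09 (0.229).

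TRIB1 was at 303, 212 and 331 in Hs578T siASAP1 beside 149, 224 and 93.6 in siCtrl, with 1 library of each group inside the other's range. The Log2 FC was 0.92 (SE 0.39, limma adjusted p = 0.923), under the study's limit of 1. It met both limits without siASAP1 replicate 2 (1.11, limma adjusted p = 0.71) and without siCtrl replicate 2 (1.22, adjusted p = 0.959). In BT549 and SUM149PT the Log2 FC was 0.29 and 0.01, and over the lines 0.41 (adjusted p = 0.389). CEBPB met the limits in BT549 at 2.03 (limma adjusted p = 0.485), 1 of 4 probes for TRIB1 partners and paralogs.

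FAM49B, the gene nearest to ASAP1, was at 978, 287 and 147 in BT549 siASAP1 beside 1115.5, 494 and 594 in siCtrl, at 716, 903 and 340.2 beside 895, 1064 and 392 in Hs578T, and at 489.5, 224 and 503 beside 302, 1367 and 270.1 in SUM149PT. The groups overlapped in each line. The Log2 FC was −0.99, −0.25 and −0.34, and −0.53 over the lines (SE 0.39, 95% CI −1.34 to 0.28, limma adjusted p = 0.552). Without SUM149PT siCtrl replicate 2, at 1367, the sign turned in SUM149PT, to 0.41 (limma adjusted p = 0.597). Over the lines the value was then −0.33 (0.728). Without BT549 siASAP1 replicate 1, the highest of its group, FAM49B and NSMCE2 met the study's limits in BT549, at −1.74 (limma adjusted p = 0.0618) and −1.53 (0.102), beside −0.99 and −0.90 with it. That library scored 0.34 on the main axis of replicate differences described further on, which both genes followed (r = 0.83 and 0.96). The share of all probes in that fit is not given here, and the library was picked because calls changed. These calls are therefore a description, as are those of EFR3A, TRIB1 and NDRG1_21187 without 1 library of BT549 or Hs578T.

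NSMCE2 was at 472, 38.5 and 485 in SUM149PT siASAP1 and at 44.3, 600.4 and 28.8 in siCtrl, so high and low libraries occurred in both groups. Its Log2 FC there was 1.16 (SE 1.35), and without siCtrl replicate 2 it was 2.51 (limma adjusted p = 0.18). It was the only member of 10 past the study's limits in that fit, where 23.4% of all probes met them. RNF139 had Log2 FCs of −0.50, −0.35 and 0.03, PHF20L1 of 0.09, −0.04 and 0.46 and NDRG1_4510 of 0.30, −0.32 and 0.15. NDRG1_21187 had −0.94, 0.08 and 0.43, and in BT549 it was −1.61 (limma adjusted p = 0.932), which met the study's limits, without siASAP1 replicate 2, whose level was 123 beside 16.9 and 51.1.

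The partners and paralogs of the other members gave few changes over the lines. SREBF2, the transcription factor of cholesterol synthesis, fell by 1.41 (limma adjusted p = 0.00411), 1 of 11 probes of the sterol and ligase list, and LOX fell by 1.07 (0.0106), 1 of 16 of the hypoxia list. Over the lines 0 passed in limma among 7 probes of the SMC5-SMC6 complex (2 at an unadjusted p under 0.05), 8 of RAC1 and WAVE (1), 6 of the PI4KA complex (1), 8 of the NSL complex (1), 10 of the O-glycan enzymes (2), 1 of the NDRG family (0) and 4 of the TRIB1 list (1), and voom gave 0 in each. In single lines EID3 met the study's limits in Hs578T (1.64, limma adjusted p = 0.915) and SUM149PT (2.61, 0.377), and ST3GAL4 in SUM149PT (1.59, 0.344). Counts in that line without siCtrl replicate 2 were 2 of 8 for SMC5-SMC6 in place of 1, 3 of 8 for RAC1 and WAVE in place of 0, 1 of 7 for NSL in place of 0, 3 of 9 for the O-glycan enzymes in place of 1 and 1 of 4 for the TRIB1 list in place of 0. The share of all probes that met the limits was 23.4% in that fit, in place of 9.56%.

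The SUM149PT result changed with the libraries that entered. Leaving out both replicate 2 libraries, siCtrl for its ASAP1 level and siASAP1 for its place beside the siCtrl libraries described further on, was chosen after seeing the data and leaves 2 libraries against 2, picked by their values. In that fit 3 of 10 members met the study's limits, beside 40.4% of all probes. NSMCE2 was higher by 3.71 (limma adjusted p = 0.000399) and PHF20L1 by 1.49 (0.0029), and EFR3A was lower by −1.36 (0.0399). MYC had a Log2 FC of −0.89 (adjusted p = 0.00946), under the limit of 1, and FAM49B 0.80 (0.038). ASAP1 itself was at −2.39 (0.000592). Over the 3 lines 0 of 11 members passed in that fit (1.14% of all probes), and in the interaction 1 did, NSMCE2 (limma adjusted p = 0.0185), beside 6.6% of all probes. Because the libraries were chosen by their values, these p-values are a description and not a test of siASAP1.

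Neighbours along the chromosome gave few changes with all libraries. Of the probes between RNF139 and ST3GAL1 that are not members, 1 of 6 met the study's limits in BT549 (SQLE, −1.60, limma adjusted p = 0.634), 1 of 5 in SUM149PT (GSDMC, a gasdermin, from a mean of 2.38 to 28.6, lost with voom and with the replicate block), 0 of 7 in Hs578T (1 at an unadjusted p under 0.05, 0 with voom), and 0 of 7 over the lines (1 and 0). For the whole band, 2 of 69, 3 of 69 and 4 of 71 probes met the limits. The last count was 14 of 73 without SUM149PT siCtrl replicate 2 (23.4% of all probes in that fit) and 1 with the replicate block, under which Hs578T gave 6. Over the lines 1 of 73 passed after adjustment: LY6E, a GPI-anchored surface protein, fell by 0.98 (limma adjusted p = 0.0143, and 0.0715 with the replicate number as a block). LY6E lies outside the stretch between RNF139 and ST3GAL1.

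**Figure D4:**
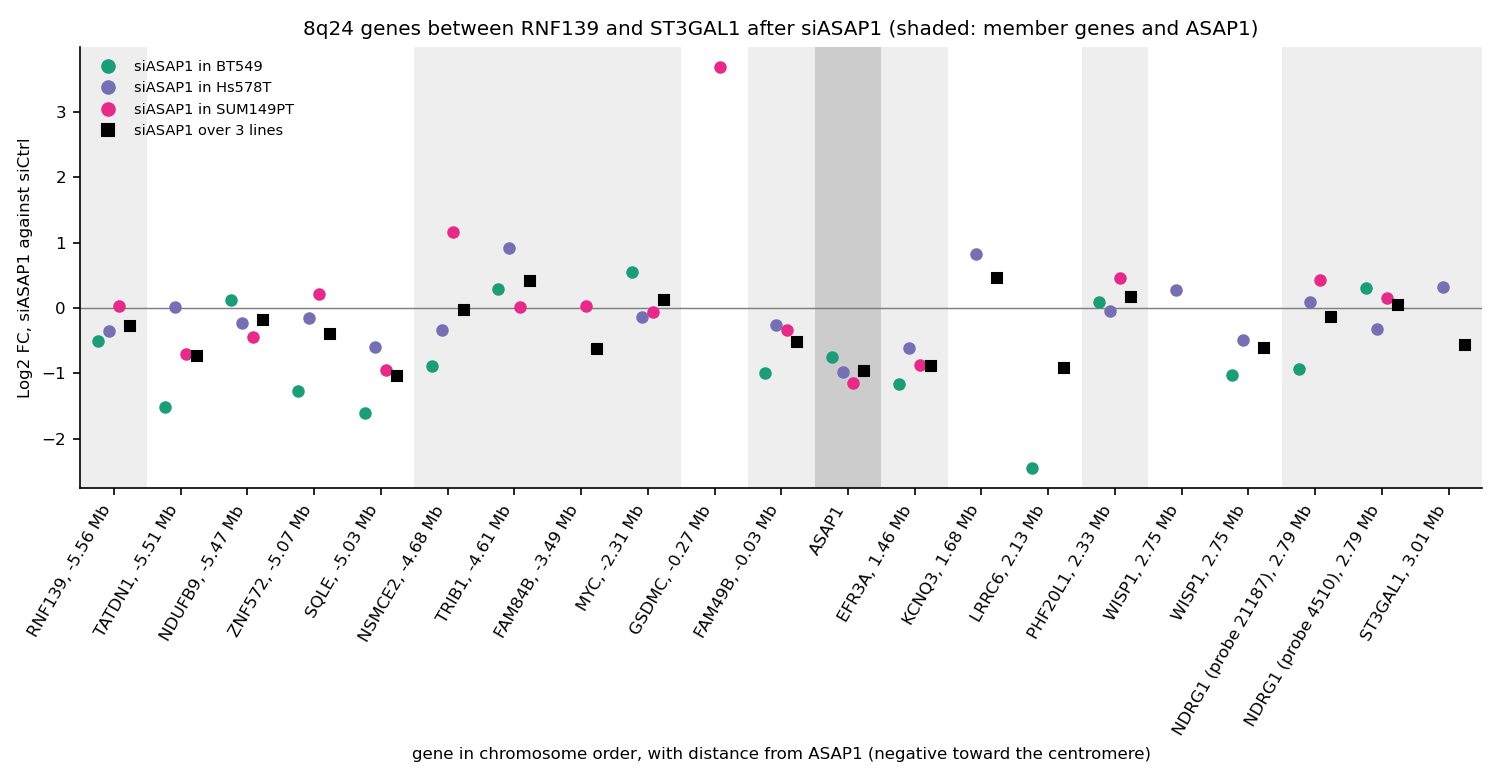
Log2 FC (siASAP1 against siCtrl) of the probes tested between RNF139 and ST3GAL1, in chromosome order with their distance from ASAP1 in Mb; colours are lines and squares the estimate over the 3 lines. Members and ASAP1 are shaded, and ASAP1 and EFR3A are below 0 in every line while FAM49B, on the other side of ASAP1, is at −0.99 to −0.25. No member passed, and without 1 library FAM49B reached 0.16 in Hs578T and 0.41 in SUM149PT. Of the 7 probes in this stretch that are not members, 1 was above 0 over the lines.

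Several members varied together between replicates of a group. The main axis of the differences between replicates, the first principal component of the deviations from group means over 10475 probes, held 42.5% of the variance within groups. Over the 18 libraries the deviations of NSMCE2, FAM49B, RNF139 and PHF20L1 had Pearson r of 0.96, 0.83, 0.77 and 0.65 with it, and those of MYC and NDRG1_21187 −0.90 and −0.81. ASAP1 itself had −0.95, while EFR3A (−0.09), FAM84B (0.07), ST3GAL1 (−0.19), TRIB1 (−0.28) and NDRG1_4510 (0.30) followed it little. The median absolute r of all probes was 0.57. These correlations describe libraries that share lines, treatments and probe chemistry, and the axis had r of 0.55 with log10 reads and 0.72 with the number of probes detected.

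**Figure D5:**
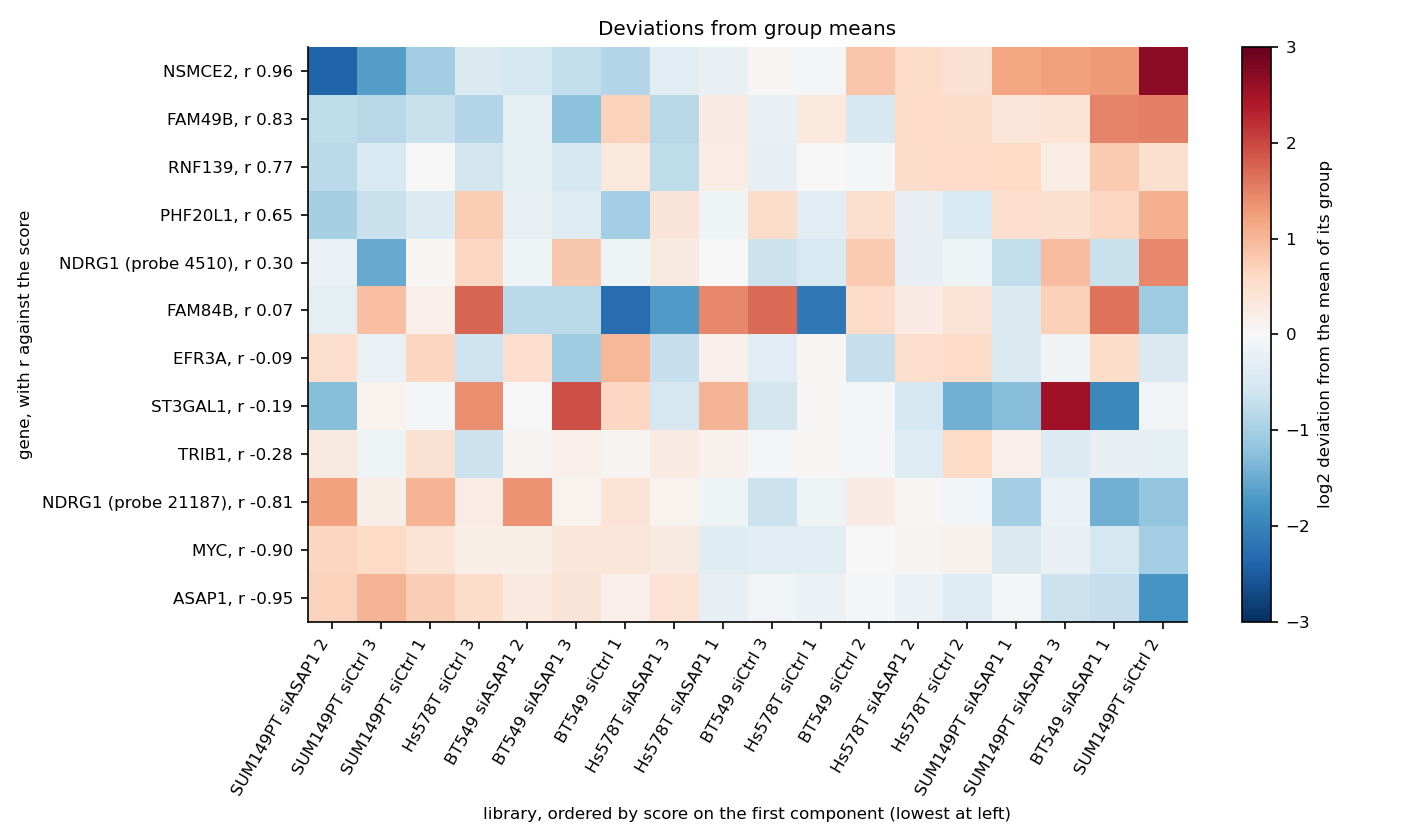
Heat map of the log2 deviation of each of the 18 libraries (columns, ordered by score on the first component of replicate differences) from its group mean for the 11 probes and ASAP1 (rows, with r against the score). NSMCE2 goes from blue (low) to red (high) with the score (r = 0.96), MYC the other way (r = −0.90), and SUM149PT siCtrl replicate 2 has the highest score, 0.56.

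Along this axis the order of SUM149PT libraries crossed the treatment. SUM149PT siCtrl replicate 2 scored 0.56, siASAP1 replicates 1 and 3 scored 0.17 and 0.21, and siASAP1 replicate 2 (−0.37) lay with siCtrl replicates 1 and 3 (−0.25 and −0.31). In the libraries at the high end NSMCE2 was at 600.4, 472 and 485 and MYC at 868, 1253 and 1452, and in those at the low end NSMCE2 was at 38.5, 44.3 and 28.8 and MYC at 2629, 2340 and 2685. The other measures that moved with it were depth and detected probes, whose part in the result was not tested. Whether the labels of the SUM149PT replicate 2 libraries were exchanged was not tested either; the labels were kept as given, and the SUM149PT values after siASAP1 depend on them.

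Pairs of members were compared directly. Over the 18 libraries, after subtracting group means, MYC and NSMCE2 had r of −0.87, FAM49B and RNF139 0.88, NSMCE2 and PHF20L1 0.77, and MYC and NDRG1_21187 0.80. The 2 NDRG1 probes had r of 0.02 with each other within groups, although both ordered the lines alike. Among 7008 probes whose mean normalized count reached 50, those most like MYC within groups included ISCU (r = 0.97), NAXE (0.96), RGS10 (0.95) and WDR43 (0.95), and 125 probes exceeded 0.9, beside a median of −0.01. With values centred on the line only, ISCU (0.95), WDR43 (0.94), LMNA (0.93), PTTG1IP (0.93) and NELFE (0.92) came first. WDR43, a ribosome assembly factor, was also on the list of MYC-activated targets, and how many others of that list exceeded 0.9 is not given here. MYC had r of −0.90 with the main axis of replicate differences, whose part in these correlations was not tested.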

How the data were processed

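Per the submitters' processing notes and the study's methods, reads were demultiplexed with bcl2fastq, assigned to probes with Bowtie, divided by size factors of DESeq2, and the authors deposited log2(normalized count + 1) for 21111 probes, with replicates not pooled. Versions and genome build are not given in the sources used here. Whole reads were recovered from the steps of the low values (100% of values within 0.1 of a whole number). The depth was 4633629 to 12488575 reads. Probes whose mean normalized count reached 10 over the compared libraries were fitted with limma 3.58.1 (lmFit, eBayes with trend, R 4.3.3), with Benjamini-Hochberg adjustment over all of them: 9 siCtrl libraries for the lines, 6 libraries within a line for siASAP1, and all 18 for the effect over lines and the interaction. Scripts were tested on simulated data. The members, the gene lists and the rule for named genes (up to 4 called genes per list and comparison with the smallest p) were chosen with earlier results of these data known. The members lie on a chromosome whose sequence is not reported here. Counting intervals cover counting error only, since PCR reads carried no molecular identifiers. Alternatives were TMM scaling, library totals, a pseudocount of 0.1 in place of 1, voom weights, no filter or a minimum of 50, a replicate block, a single fit of all 18 libraries and leaving out each library. Added after seeing the data were the first component of replicate differences as a covariate and leaving out both SUM149PT replicate 2 libraries. Replicates differed by more than sampling noise (chi-square divided by its degrees of freedom, 10.1 to 247), and none were duplicates. Some genes that the naming rule would give are not reported here.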

Additional observations from a re-analysis of the deposited data

How the results depend on the processing

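Of 682 values recomputed under planned settings other than leaving out a library, 658 kept their direction and their side of the threshold. Fitting all 18 libraries together gave 1 member call for SUM149PT minus BT549 (NDRG1_4510) and 1 for siASAP1 in BT549 (EFR3A), and library totals gave 1 for siASAP1 in Hs578T (TRIB1). Calls lost were EFR3A in BT549 minus Hs578T with TMM scaling (limma adjusted p = 0.051), library totals (0.0616), pseudocount 0.1 (0.055) and no filter (0.0568), and NDRG1_4510 in SUM149PT minus Hs578T with pseudocount 0.1 (0.0543), and RNF139 in BT549 minus Hs578T was gained with voom (0.0496). Signs turned for small Log2 values: with library totals FAM49B in BT549 minus Hs578T (0.13), PHF20L1 in Hs578T (0.071), MYC in SUM149PT (0.15) and NSMCE2 over the lines (0.10); with TMM scaling TRIB1 (−0.051), FAM84B (−0.032) and RNF139 (−0.034) in SUM149PT; with voom NDRG1_4510 in SUM149PT (−0.061) and over the lines (−0.19) and NDRG1_21187 over the lines (0.0028). The cause was not tested.

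Leaving out 1 library gave 2 to 5 member calls for BT549 minus Hs578T, 0 to 4 for SUM149PT minus BT549, 2 to 7 for SUM149PT minus Hs578T, and for siASAP1 0 to 2 in BT549, 0 to 1 in Hs578T and 0 to 1 in SUM149PT. The Log2 FC of ASAP1 lay between −0.95 and −0.41 in BT549, between −1.20 and −0.71 in Hs578T, and in SUM149PT between −2.04 and −0.64. Without SUM149PT siCtrl replicate 2 the probes called for BT549 minus Hs578T went from 1421 to 2264, for SUM149PT minus BT549 from 1866 to 3453, for SUM149PT minus Hs578T from 2076 to 3200 and for siASAP1 in SUM149PT from 963 to 2325. Of 80 Log2 values of members and ASAP1, 24 changed sign in some library's absence. These were for BT549 minus Hs578T NSMCE2 (−0.19 to 0.67), FAM49B (−0.50 to 0.22) and FAM84B (−0.94 to 1.27), for SUM149PT minus BT549 EFR3A (−0.64 to 0.21) and ASAP1 (−1.14 to 0.25), and for SUM149PT minus Hs578T PHF20L1 (−0.77 to 0.15). For siASAP1 in BT549 they were PHF20L1 (−0.43 to 0.36) and NDRG1_4510 (−0.023 to 0.64), and in Hs578T MYC (−0.30 to 0.047), FAM49B (−0.69 to 0.16), PHF20L1 (−0.27 to 0.34), ST3GAL1 (−0.40 to 1.03) and RNF139 (−0.63 to 0.028). In SUM149PT they were MYC (−0.57 to 0.24), TRIB1 (−0.14 to 0.24), FAM49B (−0.75 to 0.41), FAM84B (−0.50 to 0.48), NDRG1_4510 (−0.61 to 0.87), NDRG1_21187 (−0.17 to 0.94) and RNF139 (−0.27 to 0.43), and over the lines MYC (−0.017 to 0.22), NSMCE2 (−0.35 to 0.27), NDRG1_4510 (−0.18 to 0.24) and NDRG1_21187 (−0.35 to 0.12).

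Whether same-numbered libraries share more than a number is not given by the labels and was not tested. Their deviations had correlations from −0.65 to 0.41, and in no set of groups did all 3 pairs exceed 0.1. The siASAP1 and siCtrl pairs had 0.099, 0.34 and 0.35 in Hs578T and −0.32, −0.65 and −0.34 in SUM149PT. In BT549 they had −0.18, −0.35 and 0.11. With the replicate block the member calls were 4, 0 and 7 in the line comparisons (15.4%, 19.7% and 22.4% of all probes), adding RNF139 for BT549 minus Hs578T (limma adjusted p = 0.0328) and FAM84B for SUM149PT minus Hs578T (0.039), and 0 after siASAP1 (6.11%, 4.58% and 3.48% of all probes in the lines, 0.325% over them). Depth limits FAM84B and ST3GAL1 most, with 0 to 48 and 0 to 96 reads.

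A pair of further settings was added after seeing the data. The first component of replicate differences as a covariate gave 5, 4 and 7 member calls in the line comparisons (27.5%, 34.2% and 37.1% of all probes), 1 for siASAP1 in SUM149PT (20.4%) and 1 in the interaction (4.39%), both NSMCE2, and a Log2 FC of −1.16 for ASAP1 in SUM149PT that then passed the study's limits; the covariate was built from the same libraries and removes replicate spread by construction, so its p-values are too small. Leaving out both SUM149PT replicate 2 libraries gave 3 member calls in SUM149PT, 1 in the interaction and −2.39 for ASAP1 in SUM149PT, and signs turned in SUM149PT for TRIB1 (−0.27), FAM49B (0.80), FAM84B (−0.36) and NDRG1_21187 (−0.76) and over the lines for MYC (−0.069) and NSMCE2 (0.46).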
